A study of Ptychodera flava with 31 samples.

Results

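Of 31 libraries of the acorn worm Ptychodera flava, 4 were compared here, from a series that covers 16 stages of its life; they span the step from gastrula to larva. They are the 2 libraries titled late gastrula and the 2 titled 72 hpf tornaria, the larva at 72 hours post fertilization (hpf), and they were chosen by those titles and set side by side by replicate number. All are polyA-selected, stranded RNA libraries of whole wild-type animals, without any treatment. The labels give an age in hours for the tornaria and not for the late gastrula, and they name no parents or cultures behind a replicate number. A p-value here reflects the spread between libraries of the same stage, estimated in a fit of all 31 libraries, and this spread may be technical. Stages with 1 library (egg, transforming larva and adult) add nothing to it. Replicate number is not part of the main test, although deviations by number correlated between the 2 stages (r = 0.62 across models). Measurements are given for 35854 transcript models, of which 1317 with at least 200 CPM (CPM is the count scaled to a common library size) in the unfertilized egg were set aside. Of the 30661 models with enough counts to be tested, 29344 remained.

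Hemichordates such as Ptychodera flava are marine relatives of sea urchins and sea stars. Their gastrula, a ball of cells in which the gut has folded inward and the mesoderm is being set apart, turns into a tornaria, a transparent larva that swims and feeds in the plankton. The tornaria is known for its winding ciliated bands, its apical organ of sensory and nerve cells, a gut with a mouth, and a coelom that opens by a pore. It keeps growing as a larva before it transforms into the burrowing worm. No gene name can be attached to the models here, since 0 of the 35854 identifiers occurred in the gene table of 38920 entries that was at hand. Markers of the larval organs were therefore not looked up, and the models are described by their levels through development.

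The 4 libraries held 12322292 to 15445545 estimated counts. At least 1 TPM (a level that takes the length of the model into account) was reached by 18859 and 18549 models in late gastrula replicates 1 and 2, and by 19917 and 19286 in tornaria replicates 1 and 2. Among 9638 models with a mean of at least 10 CPM, the 2 late gastrula libraries differed at least 2-fold for 2.01% and the 2 tornaria libraries for 1.57%. Between stages, the difference reached 2-fold for 9.14% of these models in replicate 1 and 8.69% in replicate 2. The step between the stages was thus wider than the spread within either of them, on these counts of models.

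The 1317 models abundant in the egg mostly held the same level in both tornaria libraries: for 1247 of them (94.7%) the libraries were within 1.5 times of each other. A small number was present in tornaria replicate 1 and nearly absent from replicate 2. The level in replicate 1 was at least 3 times that in replicate 2 for 35 models, and no model showed the opposite, counted with 0.5 CPM added to both levels. Of these 35, 33 had a late gastrula mean under 10 CPM. Counted the same way, late gastrula replicate 1 was at least 3 times replicate 2 for 8 models, and 1 showed the reverse. The set-aside rule therefore removed far more models than those that reappeared in a single library.

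Those that reappeared are seen best in the 21 egg-abundant models with a late gastrula mean under 1 CPM. Their median level was 463 CPM in the egg, 0.445 and 0.162 CPM in late gastrula replicates 1 and 2, 3.37 CPM in tornaria replicate 1, 0.0722 CPM in tornaria replicate 2, and 0.107 and 0.0525 CPM in Heider replicates 1 and 2, Heider being the next larval stage. Tornaria replicate 1 lay above both late gastrula libraries for 20 of the 21 models, and replicate 2 did so for 2. As a share of the egg level, the median was 0.549% in tornaria replicate 1, with quartiles of 0.403% and 0.965%, and 0.0026% in replicate 2. The 2 exceptions, singled out after their values were seen, are TCONS_00049577 and TCONS_00011474. The former had 2.41 and 3.83 CPM in the tornaria and 3.48 and 3.67 CPM in Heider. TCONS_00011474 had 483 CPM in the egg, 16.5 and 20.9 CPM in the tornaria and 206 and 125 CPM in Heider, so that both libraries of each larval stage held it.

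**Figure D1:**
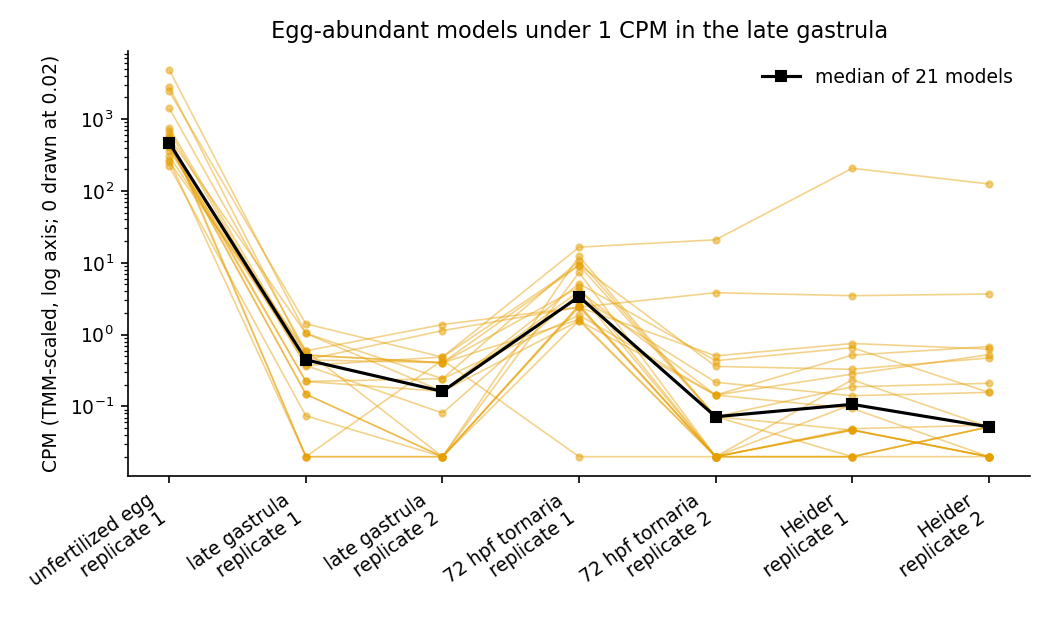
CPM (log axis) of the 21 egg-abundant models with a late gastrula mean under 1 CPM, in the egg and in the late gastrula, tornaria and Heider libraries. Each thin line is a model and the black line the median, which stands at 3.37 CPM in tornaria replicate 1 and at 0.0722 CPM in replicate 2.

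Wider gaps in CPM were seen among the 74 egg-abundant models with a late gastrula mean under 10 CPM, here in the 2 of them that were highest in the egg, whose late gastrula means were 7.95 and 7.88 CPM. TCONS_00010708, a model of 312 bases, had 31101 CPM in the egg, 12.2 and 3.65 CPM in late gastrula replicates 1 and 2, and 186 and 1.52 CPM in tornaria replicates 1 and 2. TCONS_00013972, of 846 bases, had 28542 CPM in the egg, 13.3 and 2.42 CPM in the late gastrula, and 290.4 and 1.66 CPM in the tornaria. Tornaria replicate 1 thus held 0.599% and 1.02% of their egg levels and ranked TCONS_00010708 40th by TPM, against 7295th in replicate 2. Neither passed the test between the stages (edgeR adjusted p = 0.0721 and 0.0648), and where the RNA in replicate 1 came from was not tested.

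From the late gastrula to the tornaria, more models were called higher than lower, and among the called models the rises were the larger changes. Of the 29344 models, 903 were called higher in the tornaria (3.08%) and 262 lower (0.893%), where a call needs an adjusted p under 0.05 in edgeR's quasi-likelihood test and a change of at least 2-fold. The log2 fold change over the 903 had a median of 2.75 and quartiles of 1.91 and 4.03, and over the 262 it had a median of -1.49 and quartiles of -2.24 and -1.17, against a median of 0 over all 29344. With the 160 risen models that had at most 3 counts summed over both late gastrula libraries set to 3 counts, the median over the 903 was 2.68. A rise of at least 8-fold was found for 396 called models and a fall as large for 35. The median late gastrula level was 1.46 CPM over the 903 and 34.4 CPM over the 262. The part of this difference in level in the sizes of the called changes was not tested. With the adjusted p alone and no 2-fold criterion, 986 models were higher and 569 lower. The samples are whole animals, so more cells of a kind and more RNA per cell cannot be told apart.

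Every called model had its 2 libraries of one stage above both of the other, as did 24.0% of all 29344 models for the tornaria above the late gastrula and 22.8% for the reverse. By replicate number, the median log2 ratio over the 903 risen models was 1.92 in replicate 1 and 2.13 in replicate 2, and over the 262 fallen ones -1.43 and -1.32. All 903 rose and all 262 fell within both numbers, which the lack of overlap makes certain. The number of calls depended on having all 4 libraries. With a late gastrula library left out there were 308 higher and 100 lower (replicate 1) or 394 and 183 (replicate 2). With a tornaria library left out there were 634 and 134 (replicate 1) or 454 and 88 (replicate 2). The models called with each of the 4 left out in turn numbered 237 higher and 56 lower.

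**Figure D2:**
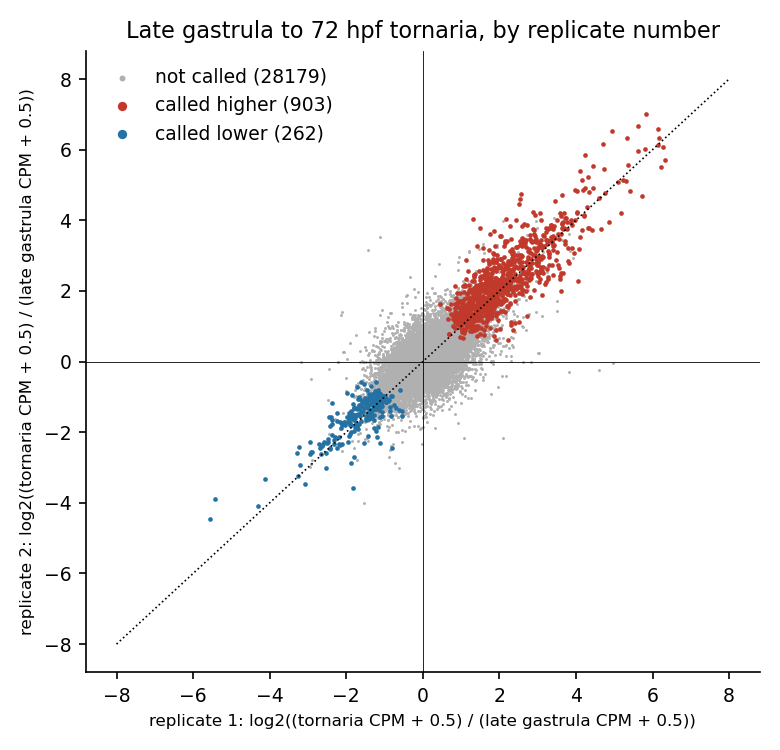
Change from late gastrula to tornaria in replicate 1 (horizontal) and replicate 2 (vertical), as log2 ratios of CPM with 0.5 added, for the 29344 models. Red points are the 903 called higher and blue points the 262 called lower. Their libraries do not overlap between the stages, so all of them must lie on the same side of 0 in both replicates.

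The models with the largest gain in CPM are a transcript already abundant in the gastrula and one that was scarce until then. TCONS_00030978, of 624 bases, had 656 and 485 CPM in late gastrula replicates 1 and 2 and 1735 and 1752 CPM in tornaria replicates 1 and 2. Both tornaria libraries stood above both of the late gastrula, and its rank by TPM went from 45 and 67 to 8 and 10. The log2 fold change was 1.61 (SE 0.47, edgeR adjusted p = 0.048). This call was lost with any 1 of the 4 libraries left out (adjusted p = 0.146 to 0.298), and from the mid gastrula after migration to Heider the transcript was not called (log2 fold change 0.58, SE 0.46, adjusted p = 0.304). Its level was 168.8 ± 31.4 CPM (SD, n = 3) before mesoderm migration and 416 ± 128 CPM (SD, n = 2) after it, so it was on the way up through gastrulation. After the tornaria it had 287 and 959 CPM in Heider replicates 1 and 2, 58.0 ± 5.07 CPM (SD, n = 2) in Agassiz, the last larval stage sampled before transformation, 18.4 CPM in the transforming larva, and the adult had 581 CPM.

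TCONS_00048864, of 980 bases, had 81.9 and 142 CPM in the late gastrula and 555 and 863 CPM in the tornaria, again without overlap. The log2 fold change was 2.66 (SE 0.43, edgeR adjusted p = 0.00107), and the call held with each library left out. It was under 1 CPM in every stage mean up to the mid gastrula before mesoderm migration, 0.508 ± 0.247 CPM (SD, n = 3) there, and 6.28 ± 2.73 CPM (SD, n = 2) after migration. In later larvae it peaked again at 726 ± 123 CPM (SD, n = 2) in Meschnikoff, was 22.1 ± 2.93 CPM (SD, n = 2) in Agassiz, and stood at 8.86 CPM in the transforming larva, while the adult had 3.11 CPM. Its level in Spengel was 105 and 246 CPM, which overlaps the late gastrula.

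The largest losses were of transcripts at their peak in the mid gastrula. TCONS_00056793, of 4187 bases, had 1705 and 2084 CPM in late gastrula replicates 1 and 2 and 319 and 377 CPM in the tornaria. The log2 fold change was -2.44 (SE 0.39, edgeR adjusted p = 0.000705), called with each library left out. It had been 0.439 CPM in the egg, 237 ± 115 CPM (SD, n = 3) in the early gastrula and 3371 ± 583 CPM (SD, n = 2) in the mid gastrula after migration. The fall was already visible in the late gastrula and went on to 72.2 ± 32.1 CPM (SD, n = 2) in Heider and 1.20 CPM in the adult.

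TCONS_00029689, of 2550 bases, followed the same course. It had 1610 and 1906 CPM in the late gastrula and 463 and 604 CPM in the tornaria. Its log2 fold change was -1.72 (SE 0.39, adjusted p = 0.0113 in edgeR's test). Its groups did not overlap, but the call was lost with any 1 of the 4 libraries left out (adjusted p = 0.0506 to 0.135). The level was 2487 ± 251 CPM (SD, n = 2) in the mid gastrula after migration, 233 ± 65.6 CPM (SD, n = 2) in Heider and 4.95 CPM in the adult.

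**Figure D3:**
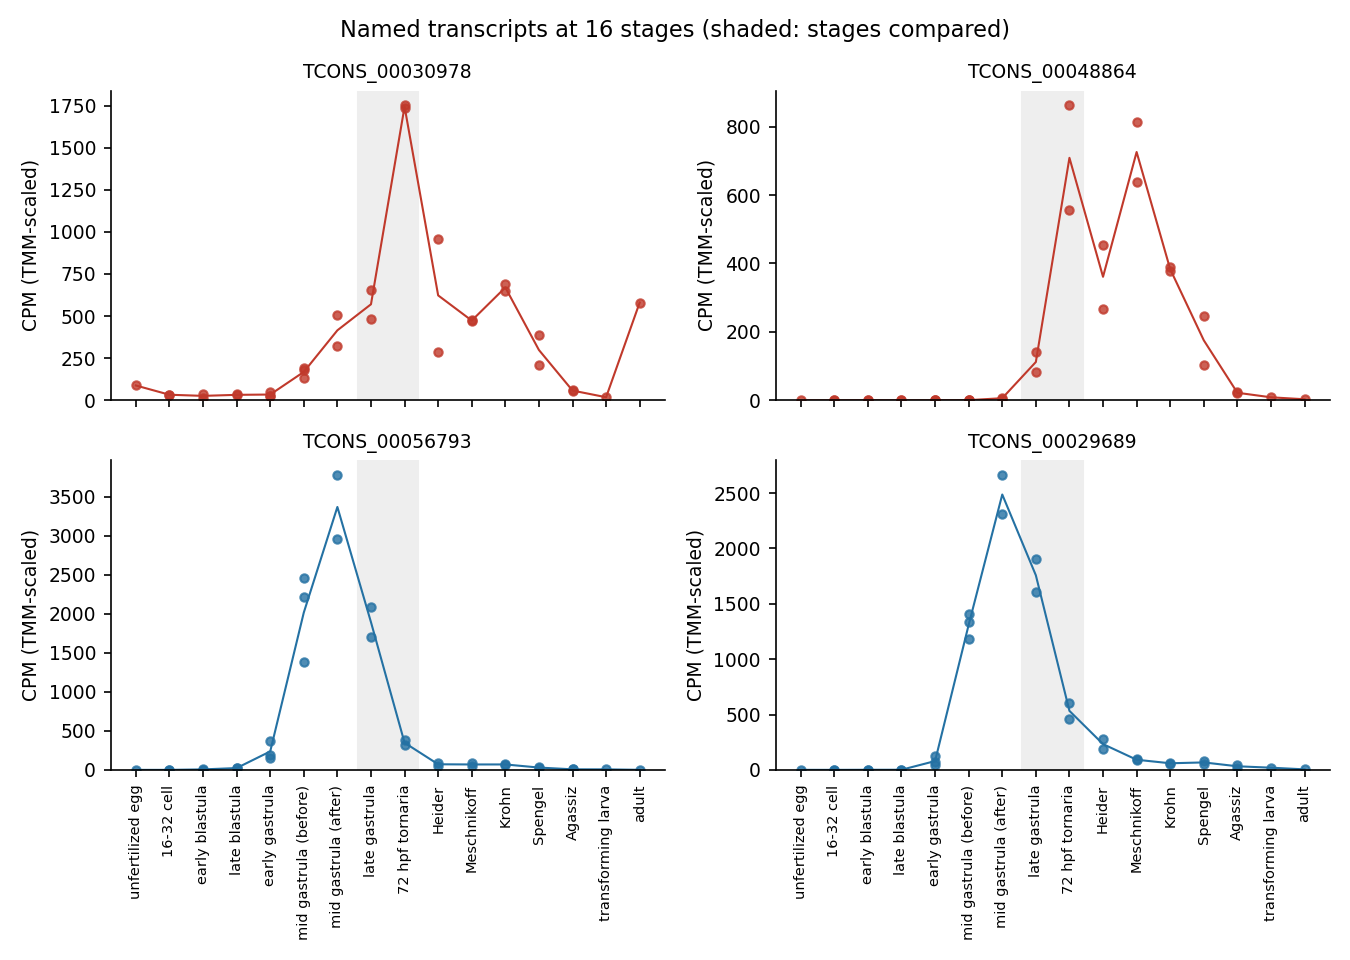
CPM of the 2 transcripts with the largest gain (top) and the 2 with the largest loss (bottom) at all 16 stages, with a point per library and a line through the stage means. The shaded stages are the ones compared, and the bottom pair is highest in the mid gastrula after migration, at 3371 and 2487 CPM.

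Some models crossed the level of 1 TPM in this step. There were 731 under 1 TPM in both late gastrula libraries and at 1 TPM or more in both tornaria libraries, and 181 with the reverse. Most stayed near that level: the newly detected had a median of 2.08 TPM in the tornaria, and 40 of them reached 10 TPM, while the lost had a median of 1.59 TPM in the late gastrula and 1 of them had reached 10 TPM. The test called 315 of the 731 higher and 32 of the 181 lower. At every stage before the tornaria, 550 of the 731 had a mean under 1 TPM. In both Heider libraries 581 (79.5%) were at 1 TPM or more. By stage mean, a looser criterion, 69.9% of all 29344 tested models were, whatever their level in the tornaria. Of the 731, 15 were not tested and are not among the 29344. Leaving out a library loosens the criterion. Without late gastrula replicate 1 or 2, 1049 or 1117 models were newly detected and 429 or 458 lost, and without tornaria replicate 1 or 2, 1102 or 1214 were newly detected and 399 or 324 lost.

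Whether these changes also appear in other libraries was examined with the stages on either side, the mid gastrula after mesoderm migration and Heider. Their 4 libraries are in neither group of the first comparison, although all 31 libraries entered the same scaling and fit. From this mid gastrula stage to Heider, 6937 of the 29344 models were called higher (23.6%) and 4572 lower (15.6%). Among the 903 models that had risen in the tornaria, 876 (97.0%) were called higher in Heider, with a median log2 fold change of 4.86. Among the 262 that had fallen, 249 (95.0%) were called lower, with a median of -2.82. With any 1 of the first 4 libraries left out, the corresponding shares were 97.0% to 97.8% of the models then called higher and at least 90.3% of those called lower. With each comparison fitted on its own 4 libraries, so that the calls share none, they were 87.2% and 87.8%, and on log2(TPM + 1) with limma 94.0% and 86.0%. Of the 28179 models called in neither direction between late gastrula and tornaria, 21.5% were called higher and 15.3% lower, with a median of 0.27. The direction seen in 4 libraries was thus found in 4 others for most called models under each of these settings, over a wider span of development. The wider comparison depends on scaling: with DESeq2 size factors its median over all models went from 0.33 to 0.59 and the share of its calls that were higher from 60.3% to 70.6%, against 77.5% and 82.5% for the step to the tornaria.

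No risen model was called lower in the wider comparison, and 27 were not called, of which 22 had the same sign. Of the fallen models 11 were not called and 2 went the other way. TCONS_00007365, named for that, had 3.39 and 4.68 counts in the late gastrula, 0 in both tornaria libraries and 35.7 and 16.2 counts in Heider, so its fall rests on few counts. TCONS_00040047 had 33.6 and 38.7 CPM in the late gastrula, 15.1 and 7.44 CPM in the tornaria and 78.9 and 33.1 CPM in Heider. Its tornaria libraries lay below those of both other stages.

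**Figure D4:**
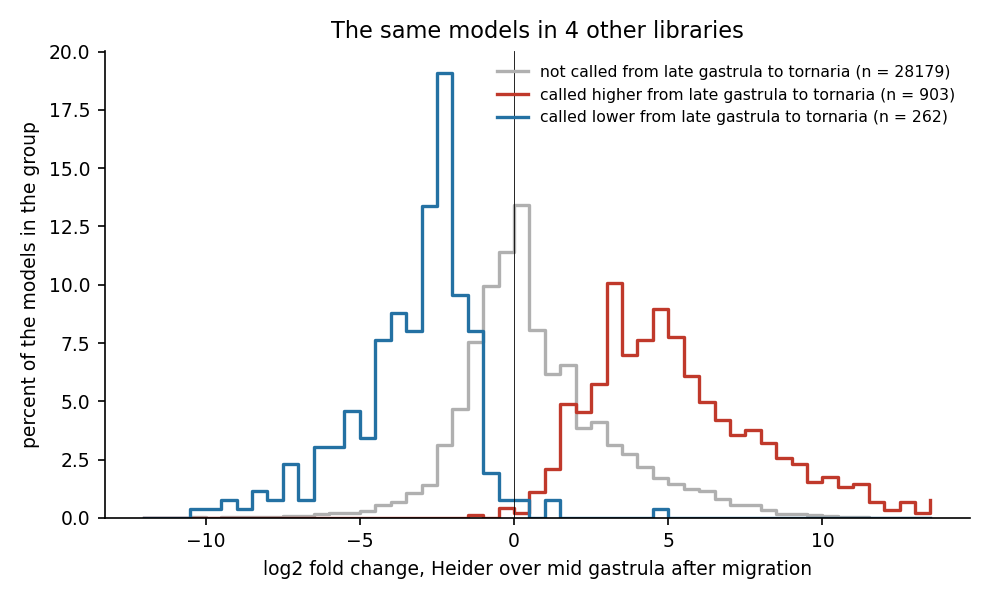
Distribution of the log2 fold change from mid gastrula after migration to Heider, as percent of each group, for models called higher (903), lower (262) or not called (28179) from late gastrula to tornaria. The groups have medians of 4.86, -2.82 and 0.27, and values beyond the axis are counted in its end bins.

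The risen models were scarce before the late gastrula. The median of their stage means was 0.128 CPM in the egg, 0.244 CPM in the early gastrula, 0.41 and 0.465 CPM in the mid gastrula before and after migration, 1.46 CPM in the late gastrula and 10.6 CPM in the tornaria, where the last 2 belong to the comparison that chose them. Over all 29344 models the corresponding medians were 0.643, 1.49, 1.92, 1.95, 2.40 and 2.93 CPM. At 1 TPM or more, 197 of the 903 (21.8%) were present in the egg and 272 (30.1%) in the mid gastrula after migration, against 41.1% and 55.8% of all models. A stage mean of 1 TPM was first reached in the tornaria by 305 of them, in the late gastrula by 136 and in the egg by 197. Over all 29344 models, 909, 697 and 12062 first reached it at these stages. The late gastrula and tornaria libraries chose the risen models, so the counts at these 2 stages follow in part from that choice.

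Together the risen models went from 0.359% and 0.382% of TPM in the 2 mid gastrula libraries after migration to 0.832% and 0.833% in the late gastrula and to 3.55% and 4.04% in the tornaria. Their share was larger again in later larvae, with 9.02% and 8.62% in Heider replicates 1 and 2 and 8.07% to 9.23% in the 6 libraries of Meschnikoff, Krohn and Spengel. It was 7.23% and 7.38% in Agassiz, 7.85% in the transforming larva, and the adult held 6.37%. Each larval library after 72 hpf thus held more of its TPM in these models than either tornaria library.

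Most of the risen models had their highest stage mean later than the tornaria. The peak lay in the tornaria for 83, in Heider for 125, in Meschnikoff for 198, in Krohn for 96, in Spengel for 38 and in Agassiz for 105. It lay in the transforming larva for 112 and in adults for 113, single libraries whose peaks have no replicate check. In all 5 larval stages after the tornaria, 766 of the 903 kept a mean of at least 1 TPM. The adult had 680 of them (75.3%) at 1 TPM, close to the 77.2% of all models, while Heider had 95.9% against 69.9%. Peak stages, and levels kept through all 5 larval stages, were not counted over all models. The median stage mean of all models was also higher later, at 2.93 CPM in the tornaria, 3.43 CPM in Heider and 4.45 CPM in the adult. Whether a late peak is particular to the risen models was not tested.

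Of the 903, 381 had been under 1 TPM in every stage mean up to the late gastrula. Among these, 128 were also under 1 TPM in the adult, and 82 were under it in both the adult and the transforming larva. These 82 models were therefore at 1 TPM, where they reached it, in larval stages alone. How many of all 29344 models did the same was not counted.

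**Figure D5:**
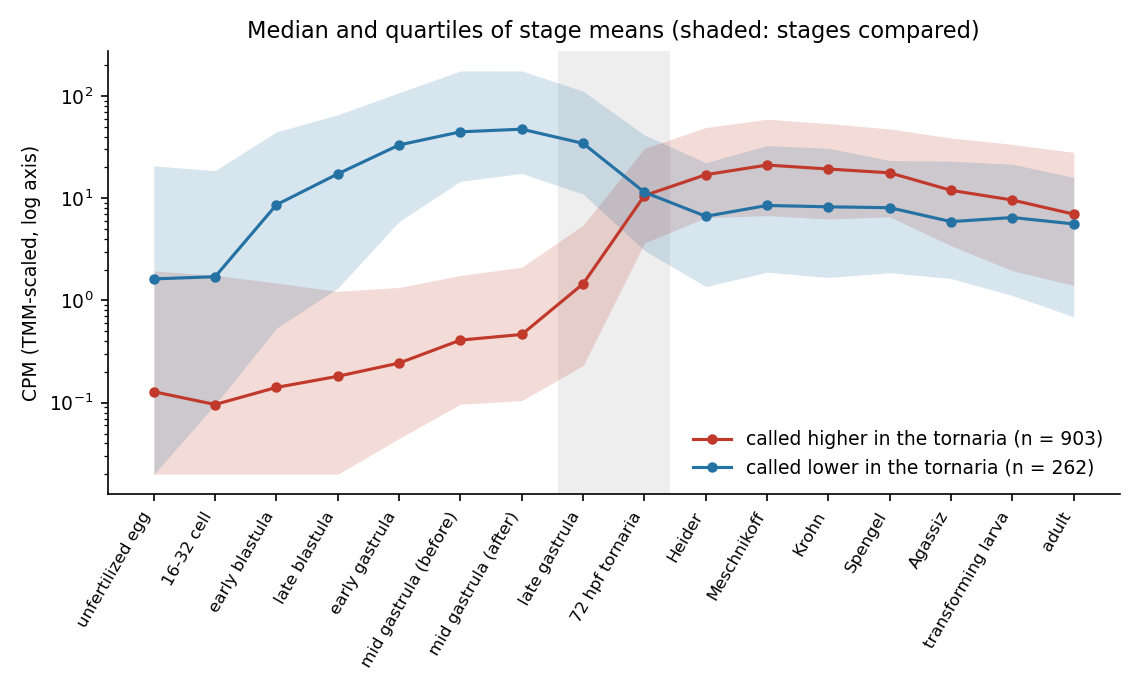
Median and quartiles of the stage mean CPM (log axis, quartiles of 0 drawn at 0.02) of the 903 models called higher and the 262 called lower in the tornaria, at all 16 stages. The shaded stages chose the models; the medians of risen and fallen models are close at the tornaria, at 10.6 and 11.4 CPM, and stand at 17.0 and 6.66 CPM in Heider.

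A smaller set of risen models had been present in the egg and was low in the early and mid gastrula. Of the 903, 57 had at least 1 TPM in the egg and a mean under 1 TPM in the early gastrula and in both mid gastrula stages. Their median level was 13.1 CPM in the egg, 0.366 to 0.488 CPM in the 3 early gastrula libraries, 1.04 and 1.06 CPM in late gastrula replicates 1 and 2, 7.16 and 7.44 CPM in tornaria replicates 1 and 2, and 11.9 and 11.3 CPM in Heider. Over all 903, the highest stage mean lay in the egg for 11 models and at the 16-32 cell stage for 18. How many of all 29344 models took the course of these 57 was not counted.

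The fallen models were mostly highest in the gastrula. The median of their stage means was 1.63 CPM in the egg, 8.64 and 17.3 CPM in the early and late blastula, 33.2 CPM in the early gastrula, 44.6 and 47.4 CPM in the mid gastrula before and after migration, 34.4 CPM in the late gastrula and 11.4 CPM in the tornaria. It was 6.66 CPM in Heider, 5.90 to 8.50 CPM in the larval stages after it, 6.48 CPM in the transforming larva, with 5.60 CPM left in adults. The stage of the highest mean was the mid gastrula after migration for 80 of the 262, the early gastrula for 42, the mid gastrula before migration for 41 and the late gastrula for 15.

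Most of them were still at 1 TPM or more in later stages. That level was reached by 259 of the 262 (98.9%) in the mid gastrula after migration and 219 (83.6%) in the tornaria. In Heider it was 216 (82.4%) and in the adult 192 (73.3%). Over all 29344 models the share at these stages rose, from 55.8% and 62.3% to 69.9% and 77.2%. Their share of TPM was 5.06% and 5.10% in the mid gastrula libraries after migration, 3.26% and 3.25% in the late gastrula, 1.08% and 1.09% in the tornaria and 0.663% and 0.588% in Heider. In these 4 stages the 2 libraries of a stage lay closer to each other than to those of the next. Between late gastrula and tornaria this follows from the choice of the models, which were called without overlap there.

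Calls were spread unevenly over levels, read in the mid gastrula after migration. Its libraries were in neither group compared, although they entered the scaling and the estimate of dispersion. Of 12972 models under 1 TPM there, 4.86% were called higher in the tornaria and 0.0231% lower. Of 8252 models at 1 to 10 TPM the shares were 2.59% and 0.63%, and of 6890 models at 10 to 100 TPM they were 0.813% and 1.81%. Of 1230 models at 100 TPM or more, 2 were called higher (0.163%) and 82 lower (6.67%). The median count per library was 2.97 in the lowest of these classes and 1127 in the highest, and the part of depth in this order was not tested.

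Levels in the egg ordered the rises in the same way and the falls hardly at all. Called higher were 4.09% of 17282 models under 1 TPM in the egg, 2.14% of 6649 at 1 to 10 TPM, 1.10% of 4921 at 10 to 100 TPM and 1 of 492 (0.203%) at 100 TPM or more. Called lower were 0.799%, 0.902%, 1.22% and 0.813% of the same classes. The models above 200 CPM in the egg are not among them.

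Longer models were called higher more often. The share called higher was 2.20% in the shortest quartile of models, up to 981 bases, 2.54% in the second, 3.45% in the third and 4.12% in the longest, above 2997 bases. The median length was 2277 bases for the risen models, 1785.5 bases for the fallen ones and 1786 bases for all 29344. Called lower were 0.952%, 0.846%, 0.927% and 0.845% of the same quartiles. The median count per library was 18.9, 17.2, 36.3 and 182.5 in these quartiles, so longer models were also counted more deeply, and the part of depth in this order was not tested.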

How the data were processed

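The deposited tables, 1 per library, hold estimated counts (expected counts, not always whole) and TPM per transcript model, made by the authors before deposit, with columns for length and effective length in bases. Per the submitters' processing notes kallisto and edgeR were used, while tool versions and the making of the models were not given in the sources used here. Stage and replicate number come from the titles.

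From these, estimated counts were rounded and tested with edgeR 4.0.16 and limma 3.58.1 in R 4.3.3: filterByExpr by stage, TMM (factors 0.6 to 1.34; 1.00 to 1.08 in the 4 libraries compared), and a quasi-likelihood fit on the trended dispersion with 1 coefficient per stage over all 31 libraries (15 residual degrees of freedom). Benjamini-Hochberg adjustment ran over all 30661 models, and egg-abundant models were set aside afterwards. Levels are TMM-scaled CPM, which do not sum to the same total in each library. In the egg, the 1317 models set aside alone summed to 1174633 CPM. Shares of the egg level rest on this scaling. Reads shared between near-identical models make their levels uncertain. The fit was tested on simulated data. DESeq2 1.42.0 served as an alternative. Counting and plots used Python 3.11.15, pandas 2.3.3, numpy 2.4.6 and matplotlib 3.10.9. Named transcripts are the 2 with the largest gain and the 2 with the largest loss of mean CPM among called models without overlap, plus the 2 highest in the egg among models set aside with a late gastrula mean under 10 CPM. The comparison, the members and the classes of models were chosen with earlier results of these data known.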

Additional observations from a re-analysis of the deposited data

How the results depend on the processing

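The direction of the 4 named transcripts was the same under every alternative run, and of the counts of calls for the step to the tornaria most stayed within 1.5 times. Dropping the 2-fold criterion gave 986 higher and 569 lower. The labels do not say that replicate numbers mark shared cultures, but the deviations of late gastrula replicate 1 from 2 and of tornaria replicate 1 from 2 correlated across models (r = 0.62, 1 value, a hint from the data). When the replicate block was added, the fit of the 4 libraries alone, with 1 residual degree of freedom, gave 1924 higher and 592 lower, and the fit of all 31 libraries gave 1011 and 298, in which TCONS_00030978 was no longer called (adjusted p = 0.0516). Leaving out 1 library gave 308 to 634 higher and 88 to 183 lower, 301 to 615 higher and 88 to 176 lower in both comparisons, and 1049 to 1214 newly detected and 324 to 458 lost, where fewer libraries had to pass. For the mid gastrula to Heider, log2(TPM + 1) with limma-trend gave 2248 lower.

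Of the 903 higher calls, 877 were shared with DESeq2's own Wald test, 903 with the fit on DESeq2 size factors, 779 with the fit of only the 4 libraries and 731 with log2(TPM + 1). With no model set aside there were 910 higher and 284 lower. When 882 models were also set aside by their share of the egg level in tornaria replicate 1, 2 higher and 5 lower calls were removed. The count of 2 libraries per stage limits the precision of every value.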
